A study of Homo sapiens with 5 samples.

Results

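The genes described are the replication-independent histone variants of DAOY cells. They were taken by symbol from the protein-coding entries of the expression table and number 9 of 60504 genes listed, among them H2AFX, H2AFZ, H2AFV, H2AFY, H2AFJ, H3F3A, H3F3B and H1FX. Of the 9 members, 8 had a mean of at least 1 TPM over the libraries and were tested among 12710 genes, and H2AFJ did not reach that level. TPM is the number of transcripts of a gene per 1000000 transcripts of its library, corrected for transcript length.

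DAOY is an established cell line of the sonic hedgehog (SHH) subgroup of medulloblastoma, a tumor of the cerebellum. Lipofectamine RNAiMAX was used to bring 20 nM of siRNA into its cells, either a non-targeting control (2 libraries, called si-NC) or siRNA against the circular RNA circ_63706 (3 libraries, called si-circ_63706), and total RNA was taken after 48 h. The comparison asks which transcripts differ when circ_63706 is targeted. The labels do not say which of the siRNAs against circ_63706 each library received, nor that libraries came from separate cultures, so p-values measure only the spread between these samples, which may be technical.

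Most histone mRNA comes from clustered genes without introns whose transcripts end in a stem loop instead of a poly(A) tail and are made during DNA replication. The variants described here are encoded by single genes elsewhere in the genome. As a class, they are expressed through the cell cycle and replace the canonical proteins in nucleosomes outside replication. H2AFX differs from the class in that its annotated 3′ UTR holds a histone stem loop. H2A.X is phosphorylated around DNA breaks, H2A.Z and H3.3 mark promoters and enhancers of active genes, macroH2A is enriched in silent chromatin, and H1.10 is a linker histone that binds between nucleosomes.

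The table gives TPM and no counts, so the depth of the libraries is unknown. Protein-coding genes took 29.02% of all TPM in both si-NC libraries and 25.2 to 26.9% in the si-circ_63706 libraries, while RN7SL1, the RNA of the signal recognition particle, took 25.4 to 25.6% and 28.1 to 29.2%. Genes listed above 0 numbered 29253 to 29748 in si-NC and 33905 to 34347 in si-circ_63706. The median log2 fold change of all tested genes was not 0 but -0.16. The change of each tested member reported is therefore also given after centring, which sets the typical gene of every library to the same level. Changes of other genes are those of the deposited TPM unless centring is named, and several of their calls were lost after centring. The circular RNA cannot be read from a table of genes, so the knockdown itself was not checked. Its host gene PCNT, a centrosome protein, had 10.2 ± 0.297 TPM in si-NC and 8.11 ± 0.639 in si-circ_63706 (SD, n = 2 and 3), with a log2 fold change of -0.30 (limma, adjusted p = 0.0190) and of -0.14 after centring (adjusted p = 0.279). By qPCR, the study reported that siRNA nearly removed circ_63706 from DAOY cells and left PCNT expression unaffected. Of the SHH subgroup markers, YAP1 (14.2 to 20.5 TPM), SFRP1 (6.81 to 9.46) and PTCH1 (2.18 to 3.90) were present. GAB1 (1.34 to 1.79 TPM) and GLI2 (0.92 to 1.43) were low, and GLI1 reached 0.49 TPM and ATOH1 0.03. OTX2, a marker of other subgroups, lay between 0.99 and 1.29 TPM, a level like that of GLI2. Markers of blood, endothelial and liver cells (PTPRC, PECAM1 and ALB) did not pass 0.23 TPM.

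The variants fell unequally. H1FX and H2AFX fell to 48.1% and 54.9% of their si-NC level, H2AFZ and H2AFV to 75.1% and 77.3%, and H3F3B to 86.3%, whereas H3F3A and H2AFY kept 91.7% and 92.9% and did not pass the test. By limma on log2(TPM + 1) with Benjamini-Hochberg adjustment over all tested genes, 5 of the 8 tested members were lower at an adjusted p under 0.05. Among all tested genes 35.4% were lower, and among protein-coding genes 37.7%. No member was higher, also at an unadjusted p under 0.05, against 4.16% of all tested genes at the adjusted and 5.80% at the unadjusted threshold. After centring, 4 of the 8 were lower (H1FX, H2AFX, H2AFZ and H2AFV) and none was higher, against a background of 13.7% lower and 13.1% higher. In 8 of the 9 members every si-circ_63706 library lay below both si-NC libraries, as it did in 55.2% of tested genes, and in none above both, against 8.93% of tested genes. Over the tested members the log2 fold changes had a median of -0.29, and of -0.13 after centring. In bulk RNA, fewer cells of a type and less RNA per cell cannot be told apart.

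**Figure D1:**
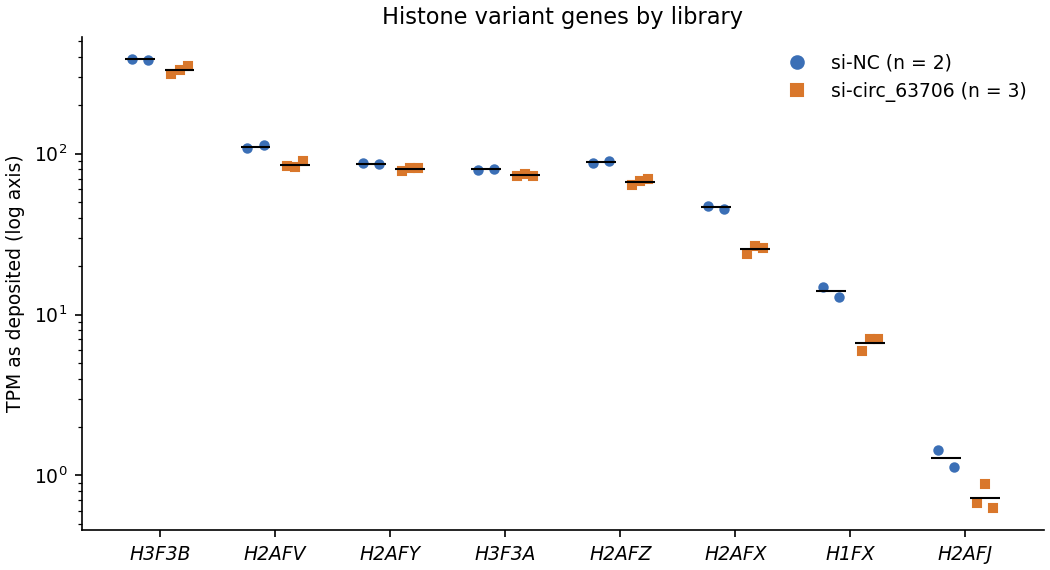
TPM of 8 histone variant genes in each library on a log axis, with 1 point per library, si-NC (n = 2) beside si-circ_63706 (n = 3), and a line at each group mean. H2AFX and H1FX fall to 54.9% and 48.1% of si-NC, and the si-circ_63706 points lie below the si-NC points for each gene shown.

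H2AFX was the only tested variant whose annotated 3′ UTR holds a match to the histone stem loop. It encodes H2A.X, the substrate of the kinases that signal DNA breaks, and lies on chromosome 11 from 119093854 to 119095467 (GRCh38, minus strand) as a single exon of 1614 nt. The stem loop starts at base 50 of its 3′ UTR of 1109 nt. GENCODE 29 lists 2 transcripts of H2AFX, and the TPM of a gene does not separate its transcripts. Stem loops were searched on the transcript strand as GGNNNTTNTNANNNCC whose first 6 bases can pair with its last 6. Only the annotated 3′ UTR of coding transcripts was searched, so a transcript without one, or with one cut short, could give no match. The counts are thus of matches found, not of all genes that have a stem loop. Of the 8 tested members 1 had a match, against 28 of 57 tested replication-dependent histone genes and 36 of 11182 other genes. Its stem loop is shown with those of the pair of replication-dependent genes that had the highest TPM among genes with a match, in capitals, with 5 flanking bases on each side in lower case (GENCODE 29, DNA letters, 5′ to 3′):
H2AFX: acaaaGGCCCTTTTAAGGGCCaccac
HIST1H2BC: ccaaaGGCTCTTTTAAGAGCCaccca
HIST1H4J: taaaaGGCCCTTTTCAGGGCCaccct

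H2AFX had 47.4 and 45.5 TPM in si-NC and 23.9, 26.7 and 25.9 TPM in si-circ_63706. The gap between the groups was wide beside the spread within either. The mean fell from 46.5 ± 1.35 to 25.5 ± 1.45 TPM (SD, n = 2 and 3), a log2 fold change of -0.84 with a standard error of 0.0594 (limma, adjusted p = 0.000771) and of -0.68 after centring (adjusted p = 0.00121). The 57 tested replication-dependent genes had a median log2 fold change of -0.59, 54 of them were lower and none was higher, and 7 of the 57 fell further than H2AFX. By class, the medians of these genes were -0.55 for H1, -0.64 for H2A, -0.57 for H2B, -0.68 for H3 and -0.58 for H4. HIST2H2AA4 (-1.54) and HIST2H3A (-1.13) fell most and HIST1H4L (-0.23) and HIST1H2BG (-0.21) least among those that passed, although HIST2H2AA4 and HIST2H2AA3 (-0.36), and likewise HIST2H3A and HIST2H3C (-0.61, not past the threshold), are near-identical copies between which reads may be divided. In si-NC, HIST2H3A had 45.3 and 87.2 TPM where HIST2H3C had 103.6 and 58.2. HIST2H3A, HIST1H4L and HIST1H2BG did not pass after centring (adjusted p = 0.0811, 0.477 and 0.565). After centring 47 of the 57 were lower, against 13.7% of all tested genes, and their median was -0.43.

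H2A.Z is encoded by H2AFZ and its paralogue H2AFV, whose products differ by only a few residues and which are both exchanged into nucleosomes by the SRCAP and EP400 complexes. H2AFZ (chromosome 4, 99948086 to 99950388, minus strand, 5 exons) had 87.4 and 90.4 TPM in si-NC and 63.5, 67.5 and 69.4 TPM in si-circ_63706. H2AFV (chromosome 7, 44826791 to 44848083, minus strand, 5 exons) had 107.9 and 113.0 TPM in si-NC and 83.4, 82.8 and 89.7 TPM in si-circ_63706. Both genes fell by a similar proportion, with no overlap between groups. The log2 fold change was -0.41 ± 0.0522 (SE) for H2AFZ (limma, adjusted p = 0.00271) and -0.37 ± 0.0526 for H2AFV (adjusted p = 0.00372). After centring, H2AFZ changed by -0.25 (adjusted p = 0.00449) and H2AFV by -0.21 (adjusted p = 0.0112), and H2AFV lost its centred call when si-NC replicate 2 was left out (adjusted p = 0.0663). H2AFZ made up 44.6 ± 0.202% of the summed TPM of the pair in si-NC and 43.9 ± 0.873% in si-circ_63706. These shares overlapped between groups (exact permutation test, two-sided, p = 0.600, adjusted over 5 shares 0.600).

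H2AFY and H2AFJ had no call on the deposited TPM with the minimum of 1 TPM. H2AFY (chromosome 5, 135333900 to 135399914, minus strand, 9 exons) encodes macroH2A1, which carries a large non-histone domain. It had 87.1 and 85.9 TPM in si-NC and 77.8, 81.6 and 81.8 TPM in si-circ_63706, so the groups were separate but close. Its log2 fold change was -0.10 ± 0.0439 (limma, adjusted p = 0.101) and turned to 0.054 after centring (adjusted p = 0.235). H2AFJ (chromosome 12, 14774383 to 14778002, plus strand), an H2A variant that accumulates in senescent cells, was the least abundant member. It had 1.44 and 1.13 TPM in si-NC and 0.67, 0.88 and 0.63 TPM in si-circ_63706, without overlap. Its mean TPM was under the minimum, so H2AFJ entered only the fits that allowed it. Its log2 fold change was -0.52 among protein-coding genes rescaled to one total (limma, adjusted p = 0.0344), where 18.3% of genes were lower and 12.1% higher. Rescaling raises TPM, so the 1 added before taking log2 weighs less in that fit. Without a minimum, the change was -0.40 (adjusted p = 0.101). With centring, it was -0.24 without si-circ_63706 replicate 1 (limma, adjusted p = 0.249) and -0.18 without replicate 3 (adjusted p = 0.336).

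Within the 5 H2A variants, the share of H2AFX fell. H2AFX held 14.3 and 13.5% of their summed TPM in si-NC and 9.59, 10.3 and 9.69% in si-circ_63706. It fell against H2AFZ, H2AFV and H2AFY but not clearly against H2AFJ, which was at 56.5% of its si-NC level beside 54.9% for H2AFX. A share within a library does not depend on how that library was scaled. The transcripts differ in GC content, with 66.4% for H2AFX, 62.9% for H2AFJ, 54.9% for H2AFY, 46.6% for H2AFZ and 43.1% for H2AFV. The part of this difference in the share was not tested. The groups did not overlap, the difference was -4.08 percentage points, and the exact permutation p was 0.200 (adjusted 0.333), the smallest that 2 against 3 libraries allow, so this test cannot reach 0.05 for a share.

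**Figure D2:**
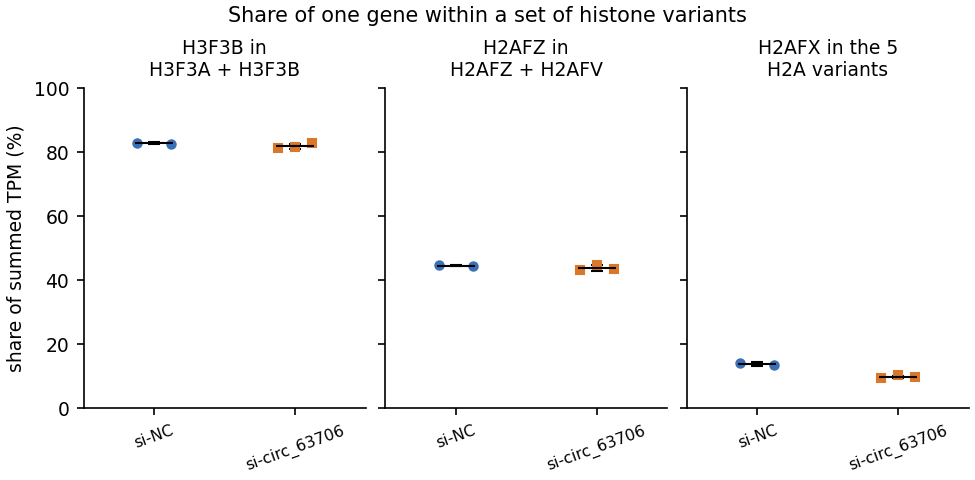
Share of 1 gene in the summed TPM of the set named above each panel, in percent, with 1 point per library, a line at each group mean and bars of 1 SD (si-NC n = 2, si-circ_63706 n = 3). The share of H2AFX is lower in every si-circ_63706 library, and those of H3F3B and H2AFZ overlap between groups.

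H3F3A and H3F3B encode the same protein, H3.3, from different genes. H3F3B (chromosome 17, 75776434 to 75785893, minus strand, 4 exons) was the most abundant member, with 386.0 and 382.4 TPM in si-NC and 313.0, 332.9 and 348.4 TPM in si-circ_63706. The si-circ_63706 libraries were spread more widely (SD 17.7 TPM) than those of si-NC (SD 2.50 TPM), without overlap. Its log2 fold change of -0.21 ± 0.0549 passed (limma, adjusted p = 0.0237), but it was -0.055 after centring (adjusted p = 0.248), -0.062 with protein-coding genes rescaled (adjusted p = 0.109) and -0.10 with quantile normalization (adjusted p = 0.0752). The call was also lost, at a similar fold, without si-NC replicate 1 (-0.21, adjusted p = 0.128), si-NC replicate 2 (-0.22, adjusted p = 0.111) or si-circ_63706 replicate 2 (-0.22, adjusted p = 0.0690), and without a minimum TPM (-0.21, adjusted p = 0.0947). Over all alternatives its adjusted p ranged from 0.0160 to 0.248. H3F3B overlaps UNK, a gene of the opposite strand, over 1123 nt. UNK changed by -0.37 (limma, adjusted p = 0.00781) and by -0.21 after centring (adjusted p = 0.0525). With the strand of counting not given, the reads of the overlap cannot be told apart.

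H3F3A (chromosome 1, 226061851 to 226072001, plus strand, 3 exons) had 79.0 and 80.6 TPM in si-NC and 72.2, 74.8 and 72.5 TPM in si-circ_63706. The groups were separate, but the log2 fold change of -0.12 ± 0.0416 did not pass (limma, adjusted p = 0.0551) and was 0.035 after centring (adjusted p = 0.523). H3F3AP4, a processed pseudogene on chromosome 2 (174719908 to 174720318, plus strand), has 411 bases that all match the H3F3A transcript without a mismatch, so reads within them cannot be told apart, and how they were divided was not tested. The table lists more TPM for this copy than for the gene, 121.5 and 124.1 in si-NC and 94.2, 89.8 and 102.8 in si-circ_63706. Its log2 fold change was -0.36 (limma, adjusted p = 0.00691) and -0.20 after centring (adjusted p = 0.0322). With the TPM of the pseudogenes named after H3F3A added to it, the gene had 202.1 and 205.8 TPM in si-NC and 167.7, 165.0 and 176.2 TPM in si-circ_63706. The change of -0.26 passed (limma, adjusted p = 0.00666) and was not computed after centring. TPM is corrected for length, and the copy has 411 nt against 1308 nt of the matching H3F3A transcript. A read listed for the copy thus weighs more in this sum than a read of the gene, so the sum is no estimate of the gene's level. H3F3B made up 82.8 ± 0.296% of the H3.3 pair in si-NC and 81.9 ± 0.787% in si-circ_63706 (exact permutation p = 0.400, adjusted 0.500), and with pseudogenes added the difference turned from -0.903 to 0.812 percentage points. H3F3A shared 12.9% of its 50-base windows with other listed genes, H3F3B 8.28%, H2AFZ 6.45%, H2AFV 3.06% and H2AFX 0.319%, and the remaining members shared none.

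**Figure D3:**
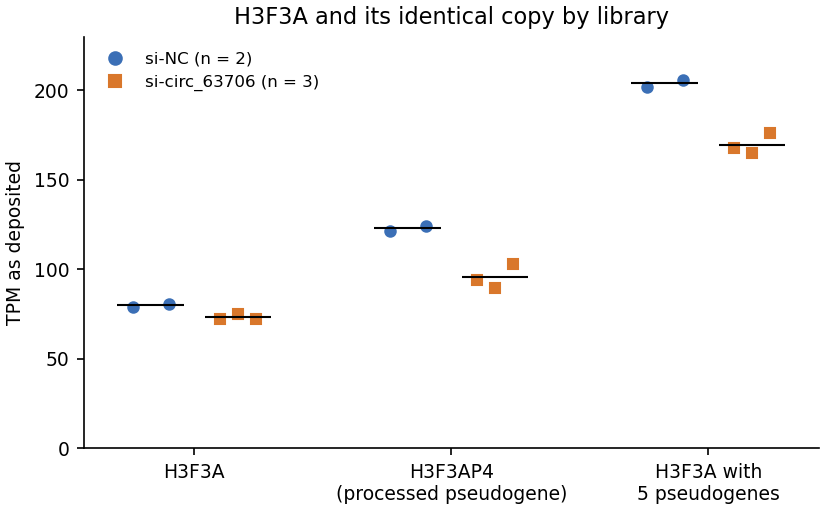
TPM of H3F3A, of its processed pseudogene H3F3AP4 and of H3F3A with the pseudogenes named after it added, with 1 point per library and a line at each group mean (si-NC n = 2, si-circ_63706 n = 3). The pseudogene is listed above the gene in all 5 libraries, and its groups lie further apart than those of the gene.

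H1FX, a linker histone gene, fell furthest of the members. It lies on chromosome 3 from 129314771 to 129316277 (minus strand, 1 exon), encodes H1.10, and had 14.9 and 12.9 TPM in si-NC and 5.96, 7.08 and 7.04 TPM in si-circ_63706. Every si-circ_63706 library was well below si-NC. The mean fell from 13.9 ± 1.41 to 6.69 ± 0.635 TPM, a log2 fold change of -0.96 ± 0.0923 (limma, adjusted p = 0.00143) and of -0.80 after centring (adjusted p = 0.00267). Of the 57 tested replication-dependent genes, 5 fell further. The antisense gene H1FX-AS1 overlaps H1FX over 886 nt, and it had 0.42 to 1.01 TPM.

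**Figure D4:**
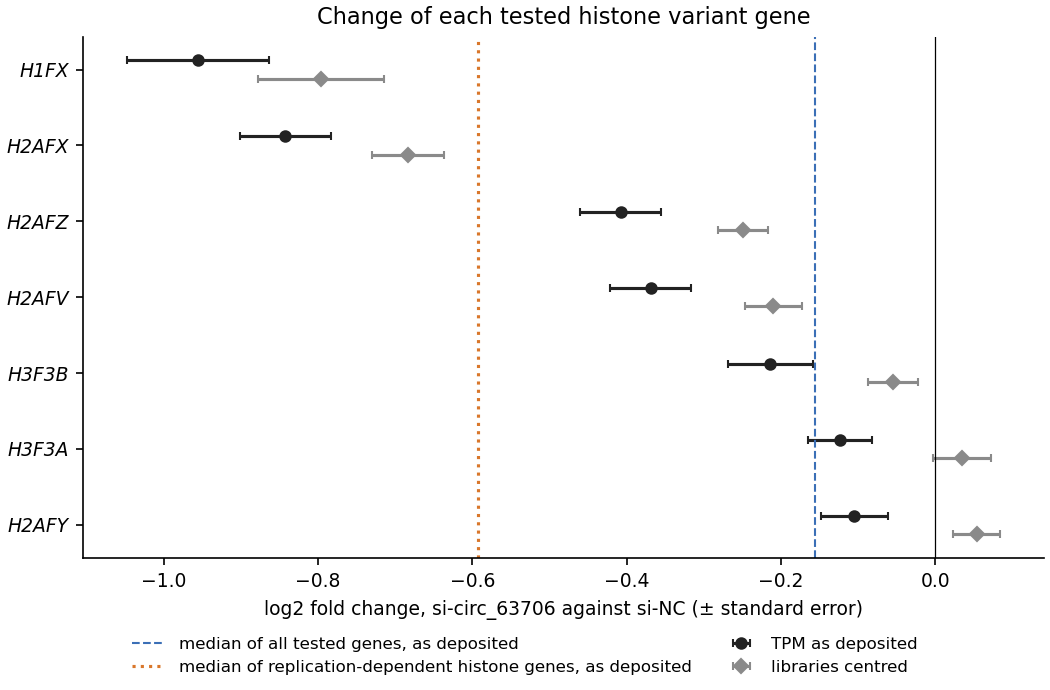
Log2 fold change of si-circ_63706 against si-NC for tested members, with standard errors, for the TPM as deposited and after centring of the libraries. H1FX and H2AFX lie below the dotted line at the replication-dependent median of -0.59, and H2AFY and H3F3A change sign with centring.

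The summed TPM of the 9 members was 818.3 and 819.2 in si-NC and 647.2, 681.5 and 702.3 in si-circ_63706, where the mean was 82.7% of that in si-NC. The replication-dependent genes together fell from 9266 ± 129.9 to 6084 ± 114.4 TPM, or 65.7%. Their share of all histone TPM was 91.9 ± 0.110% in si-NC and 90.0 ± 0.206% in si-circ_63706, lower by 1.89 percentage points without overlap between groups (exact permutation p = 0.200, adjusted 0.333).

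The base composition of transcripts moved with these results. Over tested protein-coding genes in 10 bins of transcript GC content, the median log2 fold change went from -0.069 in the bin with a median GC content of 37.1% to -0.31 in that with 63.8%. H1FX and H2AFX are rich in GC (68.6% and 66.4%), whereas H2AFZ (46.6%), H3F3B (43.1%), H2AFV (43.1%) and H3F3A (40.5%) are not. Of 946 genes that were no histones and had a GC content of at least 62%, 21 fell further than H2AFX and 14 further than H1FX. Centring within GC bins, a step chosen after seeing the data, left 5 members lower and 1 higher, against a background of 15.3% lower and 15.3% higher. H1FX was at -0.64, H2AFX at -0.53 (limma, adjusted p = 9.62e-05), H2AFZ at -0.27, H2AFV at -0.25 and H3F3B at -0.093 (adjusted p = 0.0372), and H2AFY was at 0.11 (adjusted p = 0.0266). The part of GC content in the result was not tested further. Among genes that were no histones, the 190 with a single exon had a median of -0.19, and the 25 with a single exon and a GC content of at least 62% had a median of -0.36, with 2 of them below both H2AFX and H1FX.

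**Figure D5:**
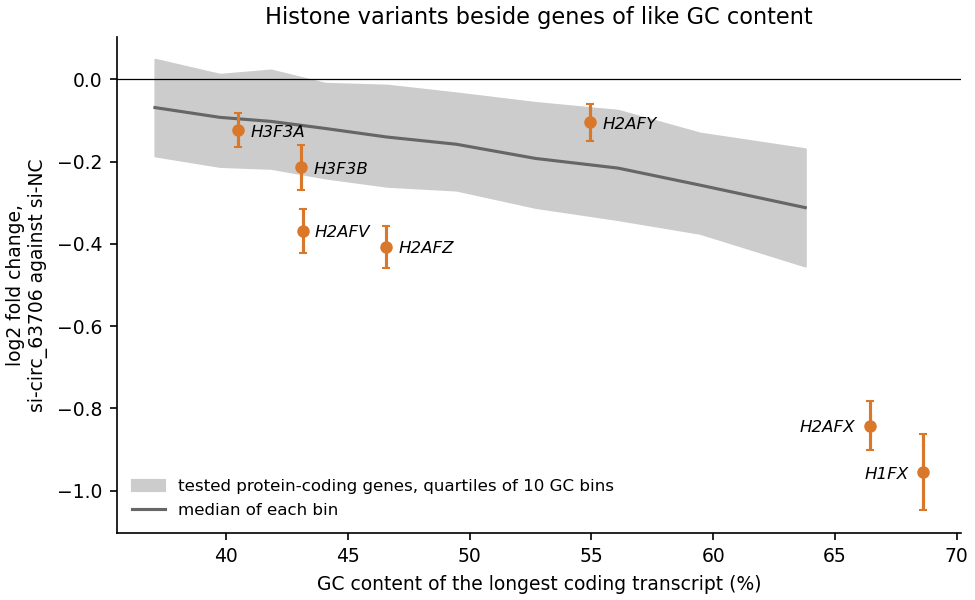
Log2 fold change against the GC content of the transcript in percent, with the median and quartiles of tested protein-coding genes in 10 GC bins and tested members as points with standard errors. The bin medians decline from -0.069 to -0.31, and H2AFX and H1FX lie below the lower quartile of the GC-rich bin.

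Promoters were read from 250 bases before to 50 after each start in RefSeq (GRCh38.p14), where 8 of the 9 members were matched. Letters were searched on both strands, and a gene was counted if any of its promoters held them. CCAAT occurred in 7 of the 8 members, all but H1FX, and in 39.7% of 27305 genes, or 34.6% of 35116 promoters. H3F3A has several promoters in the table, which gives it more sequence to match. TATAAA occurred in 4 of the 8, H1FX, H2AFZ, H2AFX and H3F3B, and in 14.0% of genes, or 11.5% of promoters. These 4 windows, all that held TATAAA, are shown with the box in capitals. Its first base lies 31, 31, 31 and 29 bases before the start in that order. Whether the box has a part in the changes was not tested. The windows are on the strand of the gene and come from the promoters at chr3:129316237-129316536, chr4:99950226-99950525, chr11:119095416-119095715 and chr17:75779730-75780029 (all minus strand):
H1FX: cgccatgaagcTATAAAaagccgagaga
H2AFZ: acattctgcagTATAAAgggagcaggga
H2AFX: tcctgggggctTATAAAggcggcctcgc
H3F3B: tgaagcgtgccTATAAAaacggaggcga

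H2AFV, which passed the test, held no TATAAA, and H3F3B passed on the deposited TPM but not after centring. The letters TTTGAA occurred in H2AFZ and H2AFX (18.2% of genes, 15.2% of promoters) and TTCGAA in H2AFV (1.82% of genes, 1.45% of promoters), while TTTGGCGC (0.795% and 0.652%) and TTTCGCGC (0.630% and 0.515%) occurred in none. A match describes these letters only.

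The factors that place and read the variants were described as lists, each beside the 35.4% lower, 4.16% higher and median of -0.16 of all tested genes. After centring the background for each list was 13.7% lower and 13.1% higher. With a library left out, the share over all tested genes is not given. List counts there, those of further variant histones included, thus have no background. Without either si-NC library, a single control remained. Of 23 genes for H2A.Z deposition and removal, 9 were lower and 1 higher, with a median log2 fold change of -0.18, a share of lower genes near that background. After centring 3 were lower and 3 higher, and without si-NC replicate 1 or 2 the lower genes numbered 4 or 5. RUVBL2, an ATPase shared by SRCAP and EP400, went from 135.9 ± 1.99 to 100.4 ± 2.42 TPM (-0.43, limma, adjusted p = 0.00145), and ZNHIT1, a SRCAP subunit, from 42.0 ± 0.509 to 32.2 ± 1.29 TPM (-0.37, adjusted p = 0.00306). SRCAP, the catalytic subunit, fell by 0.24 on the log2 scale (adjusted p = 0.0418). After centring SRCAP did not pass (limma, adjusted p = 0.501), whereas RUVBL2 and ZNHIT1 did (adjusted p = 0.00295 and 0.00803). MORF4L1, a chromodomain protein of the TIP60 complex, was higher, with 152.7 and 160.9 TPM in si-NC and 205.9, 191.2 and 198.9 TPM in si-circ_63706 (0.34, adjusted p = 0.00412). Its change after centring was 0.50 (limma, adjusted p = 0.00295).

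Of 8 genes for H3.3 deposition, 3 were lower and none higher, with a median of -0.12, which is again near the background of 35.4% lower and -0.16. None passed after centring or without either si-NC library, and 1 did without si-circ_63706 replicate 2. The 3 were CABIN1 (-0.34) and UBN1 (-0.27), subunits of the HIRA complex, and DEK (-0.19), an H3.3 chaperone. Of 19 genes for H2A.X phosphorylation and its readers, 9 were lower and none higher, with a median of -0.20, beside 35.4% lower and -0.16 over all tested genes. After centring 4 were lower and 1 higher, beside 13.7% and 13.1% of all tested genes. Without si-NC replicate 2 the lower genes numbered 5. BRCA1, a repair protein recruited to phosphorylated H2A.X, went from 10.7 ± 0.792 to 6.59 ± 0.0808 TPM (-0.63, limma, adjusted p = 0.00141), and EYA2, a phosphatase, from 2.71 and 2.75 TPM to 1.68, 1.34 and 1.48 TPM (-0.58, adjusted p = 0.00405). BAZ1B (-0.23), a kinase of H2A.X, and PPP2CA (-0.19), a phosphatase subunit, fell least among those that passed. Neither passed after centring (limma, adjusted p = 0.212 and 0.487), whereas BRCA1 and EYA2 did (adjusted p = 0.00444 and 0.0233). Of 7 partners of macroH2A, 4 were lower, with a median of -0.17 beside -0.16 over all tested genes, and 1 was after centring, without si-NC replicate 1 or 2, or without si-circ_63706 replicate 2. PARP1 (-0.49), which binds macroH2A when active, SIRT1 (-0.26) and HDAC2 (-0.17), both deacetylases, and SUPT16H (-0.19), a subunit of FACT, were the 4. Only PARP1 passed after centring (limma, adjusted p = 0.0152).

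Of 15 further variant histone genes, 3 had at least 1 TPM, and all 3 were lower, in a fit where 35.4% of genes were. With any single library left out, 1 to 2 of the 3 were lower, and 1 without si-NC replicate 1. CENPA, the H3 variant of centromeres, had 19.3 and 19.4 TPM in si-NC and 10.9, 11.4 and 12.6 TPM in si-circ_63706, without overlap. Its log2 fold change was -0.69 ± 0.0662 (limma, adjusted p = 0.00141) and -0.53 after centring (adjusted p = 0.00192). H2AFY2, which encodes macroH2A2, changed by -0.24 (adjusted p = 0.0126) and H2BFS, an H2B gene, by -0.39 (adjusted p = 0.0316), and neither passed after centring. The other 12, among them H3F3C and the H2AFB genes, did not exceed 0.27 TPM in any library.

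The 5 protein-coding genes whose log2 TPM over the 5 libraries ran closest to the mean of the tested members were ILF2, TNFRSF12A, LRRC59, NCAPD2 and TBX15, with Pearson r between 0.9995 and 0.9998 among 11287 genes ranked. The 5 libraries hold 1 group difference that all these genes share, so the likeness is a description. Their log2 fold changes were -0.37, -0.48, -0.30, -0.39 and -0.33, and after centring -0.21, -0.32, -0.14, -0.24 and -0.17.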

How the data were processed

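Total RNA of 5 DAOY libraries was sequenced. The deposited values are TPM of 60504 genes, rounded by the authors to 2 decimals, and each library sums to about 1000000. The submitters' processing notes list cutadapt 2.3, STAR 2.7.0d, RSEM 1.3.1 and hg38 without their roles. The gene annotation and the strand of counting are not given in the sources used here. All columns were used. Without counts, no counting error could be computed.

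Genes with a mean of at least 1 TPM were fitted with limma 3.58.1 (R 4.3.3) on log2(TPM + 1), with moderation along a trend of variance on mean, and two-sided p-values were adjusted by Benjamini-Hochberg (threshold 0.05). A fold change on this scale understates that of low genes. Centring took from each library the median, over genes of at least 10 TPM, of its log2 difference from the average library. Shares were compared by exact permutation of the 5 libraries. The fit was tested on simulated data.

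One member, and a share that needs it, is not reported here. The members and the gene lists were chosen with earlier results of these data known. Of each list, the pair of genes that fell most and the pair that fell least or rose among those past the threshold were named, along with all members, expressed further variants, overlapping genes of at least 1 TPM, PCNT and the 5 nearest patterns. Genes outside this rule (H3F3AP4, H1FX-AS1, HIST2H2AA3, HIST2H3C, H3F3C, the H2AFB genes and RN7SL1) were named after their values were seen. HIST1H2BC and HIST1H4J were picked by their TPM among histone genes with a stem loop match. Positions and transcripts came from GENCODE 29, which matched 56996 of the genes, and promoters from RefSeq. Alternatives were a pseudocount of 0.1, other minima, 3 other scalings, no trend, a replicate block, leaving out each library, and, added after seeing the data, GC bins and pseudogenes added to their genes. Python 3.11.15 with numpy 2.4.6, pandas 2.3.3, scipy 1.17.1, biopython 1.88 and matplotlib 3.10.9 was used.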

Additional observations from a re-analysis of the deposited data

How the results depend on the processing

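H2AFX, H1FX, H2AFZ and H2AFV were lower and passed under each of 15 alternatives, although H2AFV did not pass with centring and si-NC replicate 2 left out together. Of all tested genes, 35.4% were lower in the main fit, 13.7% after centring, 18.3% with protein-coding genes rescaled and 15.3% within GC bins. For the other alternatives this share is not given, so the counts below have no background there. Over the 15, the log2 fold change ranged from -0.87 to -0.53 for H2AFX and from -1.05 to -0.64 for H1FX. The number of members that were lower ranged from 4 to 5 when a library was left out, none was then higher, and the median log2 fold change of the members ranged from -0.33 to -0.26. That median was -0.13 after centring, -0.14 with protein-coding genes rescaled, and -0.17 with quantile normalization and within GC bins, where 1 member, H2AFY, was higher. The direction of some members followed the scaling: H2AFY was at 0.054 after centring, 0.046 with rescaling, 0.045 with quantile normalization and 0.11 within GC bins, and H3F3A at 0.035, 0.027 and 0.015 in the first 3 of these. With pseudogenes added, H3F3A joined the members that were lower, making 6, and the difference in the H3F3B share became 0.812. Both rest on a plain sum of TPM, in which reads of a short copy weigh more. The cause of these changes was not tested. Replicate numbers are shared by the groups, but libraries of one number did not deviate together (r = 0.0144 and 0.0264 over 12710 genes), and with a replicate block 5 of 8 members were lower with a median of -0.33. Of 156 counts of list members under the alternatives, 120 stayed within 1.5 times the reported count, and 36 did not. The 120 include counts of 0 that stayed at 0, many of them of higher genes, so they overstate how steady the other counts were. When a library was left out, the lower genes numbered 0 to 3 for H3.3 deposition (3 with all libraries), 1 to 4 for macroH2A partners (4), 4 to 9 for H2A.Z deposition and removal (9), 5 to 9 for H2A.X phosphorylation and its readers (9), and 1 to 2 for further variant histones (3). The shares differed by -1.34 to -0.585 (H3F3B), -1.18 to -0.346 (H2AFZ), -4.46 to -3.69 (H2AFX) and -2.01 to -1.81 percentage points (replication-dependent genes) when a library was left out. With 2 and 3 libraries and no counts, the counting error of genes near 1 TPM such as H2AFJ is unknown.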
